A study of Rattus norvegicus with 2 samples.

Results

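Single-exon long non-coding RNAs (lncRNAs) shorter than 1 kb were described in the myocardium of spontaneously hypertensive rats, an inbred strain with high blood pressure and cardiac hypertrophy. A row of the lncRNA tables was taken as a member when its end minus its start exceeded the listed length by no more than 5 bases, so that no intron was left, and its length was below 1000 bases. Of 18361 lncRNA rows with a read in either library, 7174 (39.1%) met this rule. Rats of the KXH group had received the high dose of Jiangya Kangxian formula (9.6 g/kg, intragastrically) for 12 weeks, and rats of the water group distilled water over the same 12 weeks. All rats were spontaneously hypertensive, so there was no normotensive group. There was 1 library per group, and the labels do not say whether it came from 1 animal or a pool. No difference below has a replicate check, no test between the treatments was made, and "higher" and "lower" describe these 2 libraries.

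LncRNAs are transcripts without a long open reading frame, and in the heart some are known to act on chromatin, on hypertrophic growth and on fibrosis. Many are spliced and polyadenylated like messenger RNAs, but catalogues such as NONCODE, whose rat identifiers begin with NONRATT, also hold a large number of entries with a single exon. An entry with no splice junction can be a transcript of its own, or a piece of a longer, incompletely known or unspliced transcript. Read counts over the entry cannot tell these apart.

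The lncRNA tables held 2.93 M reads with KXH (M stands for 1000000) and 3.18 M with water, beside 14.1 M and 15.1 M in the protein-coding tables. All 10 cardiomyocyte markers examined had reads in both libraries, the lowest of them, the calcium release channel Ryr2, at 598 and 607 RPKM (reads per kilobase per 1000000 reads of the table). Ratios of the cardiomyocyte markers ran from 0.942 to 1.17. All 5 red cell markers had reads and summed to 2265 RPKM with KXH and 3331 with water, of which Hbb made up 2234 and 3283. Alas2 and Slc4a1 were also lower with KXH, at ratios of 0.634 and 0.554. Ahsp was level at 0.991, and Hba2 had only 5 and 8 reads. The 4 atrial markers summed to 874 and 560 RPKM, of which the natriuretic peptide Nppa made up 854 and 547. Sln and Myl4 were also higher with KXH, at ratios of 1.61 (48 and 32 reads) and 1.69 (74 and 47 reads). The atrial light chain Myl7 was lower with KXH (1.603 and 2.41 RPKM, 13 and 21 reads). All 5 endothelial markers were lower with KXH, at ratios of 0.816 to 0.909, and so were all 5 smooth muscle and pericyte markers, at 0.654 to 0.918. Fibroblast markers had ratios of 0.966 to 1.41 and macrophage markers of 0.575 to 1.05. Among skeletal muscle markers the skeletal actin Acta1 had a ratio of 1.55 and Ckm one of 0.967, Myh1 had 1 and 2 reads, and Myh4 was at 0 in both libraries. Of the lymphocyte markers, Cd79a was at 0 in both, and Cd3e and Ms4a1 had at most 7 reads in a library. The hepatocyte markers were also low, Alb with 11 reads with KXH and 41 with water, and Apoa1 with 2 and 5. What part these differences have in the lncRNA ratios was not tested, and in whole myocardium fewer cells of a type and less RNA per cell cannot be told apart.

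Members were short, compact entries spread over the genome. Their length ran from 203 to 999 bases with a median of 580 bases (quartiles 431 and 732). In 7165 of them the span equalled the listed length, and in the other 9 the span, both end bases counted, was 5 or 6 bases longer. They lay on 21 chromosomes, with 7 more on 5 unplaced sequences, and made up between 36.9% (chromosome 5) and 45.6% (chromosome 20) of a chromosome's lncRNA rows. Chromosome 1 held the most, 918. Coordinates are given as listed. The tables name no assembly, and the submitters' processing notes name rn6. Members were not placed against protein-coding genes, since no annotation of that assembly was used here.

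As a class, members were read less than other lncRNAs. They took 21.8% of the lncRNA reads with KXH and 21.9% with water, against their 39.1% of rows. A member had a median of 26 reads over both libraries (quartiles 8 and 77.8), beside 39 over all lncRNA rows, 219 for single-exon rows of 1 kb or longer, and 38, 39.5 and 42.5 for spliced rows spanning under 10 kb, 10 to 50 kb and 50 kb or more. Per kilobase the gap was smaller to the spliced rows under 50 kb and larger to those of 50 kb or more. The median mean level was 7.39 RPKM for members, 10.3 RPKM for spliced rows under 10 kb, 10.04 for those of 10 to 50 kb, 13.2 for those of 50 kb or more and 22.6 for long single-exon rows. These class values are descriptions of the same pair of libraries, and no test of the difference between classes was made. In the cumulative curves the members lie to the left of the spliced classes over their upper part, and to the left of the long single-exon rows over nearly the whole range.

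**Figure D1:**
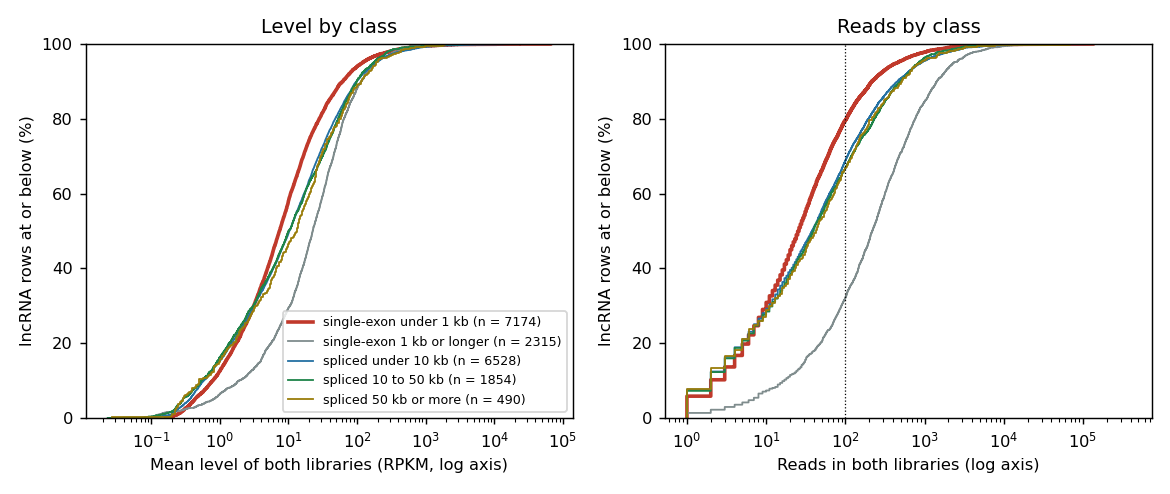
Cumulative share of lncRNA rows (%) against the mean level of the KXH and water libraries (RPKM, log axis, left) and against reads in both libraries (log axis, right), 1 line per class of lncRNA, with a dotted line at 100 reads. The members (thick line) have a median of 7.39 RPKM and 26 reads, and long single-exon rows a median of 22.6 RPKM and 219 reads.

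At the upper end the members reached the highest level of any lncRNA row. A mean level of at least 1000 RPKM was found for 37 members (0.516%) and for 104 of all lncRNA rows (0.566%). Reads were concentrated in few of them. The member with the most reads took 10.5% of the members' reads with KXH and 9.96% with water, and the 10 with most reads took 36.7% and 36.5%. In the KXH library 46 members, and with water 49, held 50% of all members' reads. At the lower end, 981 members (13.7%) had at most 3 reads in sum, and 4730 (65.9%) had fewer than 50.

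The most abundant member was NONRATT028802.2, an entry of 331 bases at chr8:85480292-85480622. It had 66857 reads (68955 RPKM) with KXH and 69220 reads (65824 RPKM) with water, which ranked it 4th by reads among all lncRNA rows. Its ratio of KXH over water was 1.05 (95% counting interval 1.04 to 1.06), and reads covered 96.7% and 95.5% of its length. The nearest other lncRNA row, a spliced one 7597 bases away, had 27 reads in each library.

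NONRATT023184.2, of 275 bases at chr5:58994680-58994954, was at 25197 RPKM with KXH and 20274 with water. With 20297 and 17713 reads its ratio was 1.24 (1.22 to 1.27). Covered at 98.2% in both libraries, it overlapped the spliced row NONRATT022213.2, which had only 29 and 39 reads. The counts of the short entry were thus far above those of the spliced row at the same place.

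On chromosome 1, 3 highly abundant members stood within 5949 bases, the run of neighbouring members with the most reads. NONRATT003466.2 (885 bases, chr1:221152844-221153728) was at 22301 RPKM with KXH and 24439 with water. NONRATT003467.2 (242 bases) was at 4368 and 4905 RPKM. NONRATT003468.2 (695 bases, chr1:221158098-221158792) was at 20918 and 21753 RPKM. All 3 were slightly lower with KXH, with ratios of 0.913 (0.902 to 0.923), 0.890 (0.849 to 0.934) and 0.962 (0.949 to 0.974), and their summed reads gave 0.931 (0.924 to 0.939). The spliced row NONRATT033930.1, which overlaps the first of them, had 62572 and 78159 reads and a ratio of 0.868 (0.859 to 0.877). Reads of the overlapping rows may not be independent of each other.

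A further run of abundant members lay at chr15:33614737-33620539, where 4 members within 5803 bases were all higher with KXH. The most abundant, NONRATT010417.2 (532 bases), was at 5764 RPKM with KXH and 4797 with water, a ratio of 1.20 (1.17 to 1.24). Its neighbours NONRATT010415.2, NONRATT010418.2 and NONRATT010876.2 had ratios of 1.38 (1.26 to 1.51), 1.22 (1.14 to 1.31) and 1.30 (1.20 to 1.42). Over the run, 12878 and 11392 reads gave 1.23 (1.20 to 1.26). The spliced row NONRATT010416.2, which overlaps NONRATT010417.2, was at 0.967 (0.759 to 1.23), an interval that includes 1.

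The remaining members among the 8 most abundant stood alone. NONRATT028906.2 (371 bases, chr8:108983621-108983991) was at 10470 and 11315 RPKM in the KXH and water libraries, a ratio of 0.925 (0.902 to 0.949). NONRATT000329.2 (393 bases, chr1:74749783-74750175) was at 10100.1 and 9613 RPKM, for a ratio of 1.05 (1.02 to 1.08), and with 11627 and 12003 reads it was covered to only 78.4% and 67.9%. NONRATT027178.2 (291 bases, chr7:124077207-124077497) was at 5300 and 5753 RPKM, for a ratio of 0.921 (0.885 to 0.959). Their nearest lncRNA rows were 237097, 727659 and 124953 bases away. Over all 8 most abundant members the ratios ran from 0.913 to 1.24.

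Coverage rose with the number of reads. Its median was 83.8% of the listed length with KXH and 85.9% with water over the members with reads there. In the KXH library it was 47.9% for members with 1 to 9 reads in sum, 82.1% with 10 to 49, 93.0% with 50 to 99, 96.1% with 100 to 499 and 98.5% with 500 or more. For the other lncRNA rows the same classes had 41.0%, 70.5%, 87.1%, 94.4% and 98.3%, and members are shorter than many of these rows. Of the 1471 members with at least 100 reads, 773 (52.5%) were covered to at least 95% in both libraries. Coverage differed between the libraries by a median of 1.4 percentage points in these 1471, and by at most 10 points in 1358.

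**Figure D2:**
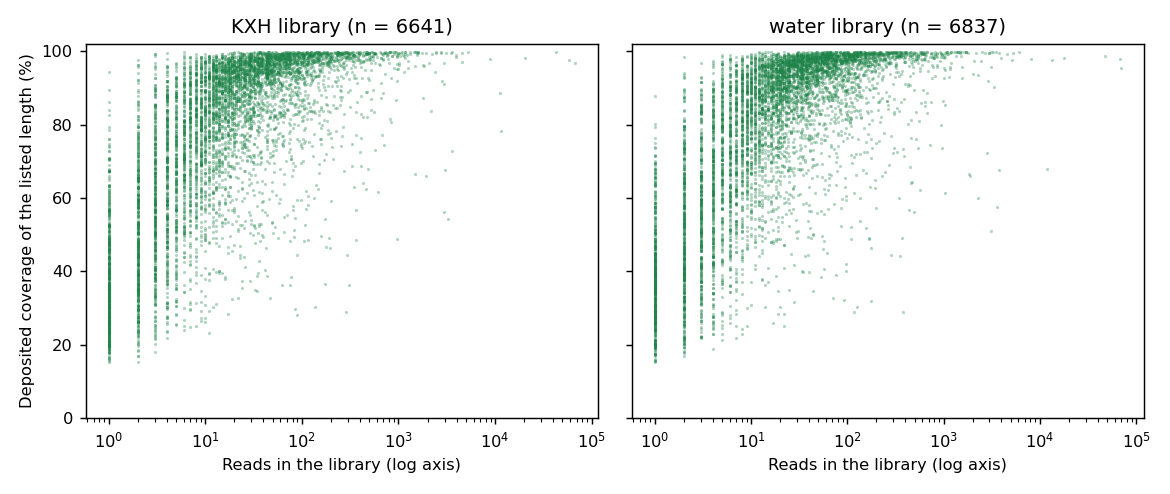
Deposited coverage of the listed length (%) against reads in the library (log axis), 1 point per member, for the KXH library (left, n = 6641) and the water library (right, n = 6837). Most members with 100 reads or more in sum lie near full coverage, and a scatter of points below shows members whose many reads covered only a piece of the entry.

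A small set of well-read members was covered over part of the entry only, several of them to a like share in both libraries. The positions covered are not listed. Coverage stayed under 50% in both libraries in 17 of the 1471, whose ratios ran from 0.808 to 1.22 with a median of 1.01. NONRATT027671.2 (625 bases, chr8:54271680-54272304) had 284 and 381 reads and a coverage of 29.0% in each library. NONRATT019664.2 (663 bases, chr3:119414464-119415126) had 89 and 117 reads over 28.2% and 28.8% of its length. By the mean coverage of both libraries, NONRATT030619.2 (521 bases, chrX:77617780-77618300) was lowest among members with at least 1000 reads, with 3264 and 3087 reads over 54.3% and 51.1%. For such entries an RPKM value spreads the reads over bases that had none. A few members differed in coverage although their reads were alike. NONRATT026262.2 (508 bases, chr7:138099718-138100225) had 117 reads over 48.6% with KXH and 136 over 87.6% with water.

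Members with a single read gave the stretch of bases that 1 counted read covers, from the coverage times the length. In the KXH library 561 members had exactly 1 read. It covered between 150 and 300 bases, and exactly 150 bases in 247 of them (44.0%). In the water library 523 members had 1 read, again covering 150 to 300 bases and exactly 150 in 232 (44.4%). No single counted read covered fewer than 150 or more than 300 bases. Whether a counted read stands for 1 read or for a pair of reads was not tested. Where a member had 2 reads, both covered the same 150 bases in 49 of 427 members (11.5%) with KXH and in 54 of 428 (12.6%) with water. An entry of 203 bases, the shortest member, offers 54 start positions to a stretch of 150 bases, and one of 999 bases offers 850.

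Reads and levels differed with length. Members of 200 to 299 bases had a median of 11 reads and those of 900 to 999 bases a median of 70. Per kilobase of listed length the median level was 7.20 RPKM in the shortest class, lowest at 6.02 RPKM for 500 to 599 bases, and 12.7 RPKM in the longest. Counted per 1000 start positions in place of bases, the shortest class had the highest median, 17.4 per 1000000 reads, against 8.37 for 500 to 599 bases and 15.1 for 900 to 999 bases. Start positions were counted for a stretch of 150 bases, the smallest that 1 counted read covered, and most single reads covered more. The shortest class lay among the middle classes by listed length and above all others by start positions, so its place turned on the denominator. The ratio between the libraries does not depend on it, and over the 1471 members with at least 100 reads the median ratio stayed between 0.971 and 1.03 in all 8 classes of length.

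The 3 shortest members with at least 100 reads were of 206 to 210 bases. NONRATT014591.2 (206 bases, chr19:26233838-26234043) had 62 reads with KXH and 63 with water, 102.7 and 96.3 RPKM. NONRATT020249.2 (206 bases, chr4:39604952-39605157) had 104 and 152 reads, 172 and 232 RPKM, for a ratio of 0.742 (0.573 to 0.959). NONRATT019765.2 (210 bases, chr3:143223269-143223478) reached 662 and 655 reads, 1076 and 982 RPKM, at a ratio of 1.096 (0.982 to 1.22). Of the 3, only NONRATT020249.2 had an interval that left out 1.

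The entries nearest the length limit differed in reads on both sides of it. Just below it, NONRATT018748.2 (999 bases) had 14 and 23 reads, and NONRATT011129.2 (999 bases) had 4 reads with KXH and none with water. Just above it, NONRATT022128.2 (1000 bases) had 99 and 125 reads and NONRATT015699.2 (1000 bases) 9 and 4. The 9 members whose span was 5 or 6 bases longer than the length had a median level of 7.69 RPKM. The 11 rows under 1 kb whose end minus start exceeded the length by 6 to 15 bases had a median of 4.25 RPKM.

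Reads were found in both libraries for 6304 members. A further 337 were listed only with KXH, with a median of 1 read and at most 16, and 533 only with water, with a median of 2 and at most 12. Together these 870 were 12.1% of the members, beside 11.8% of all lncRNA rows with reads in 1 library only. NONRATT014141.2 (477 bases, chr19:25812981-25813457) had 16 reads with KXH and none with water. With a floor of 3 reads in place of none, and leaving aside the counting error of its own 16 reads, it was at least 5.78-fold higher. The spliced row NONRATT014140.2, which overlaps it, had 42 and 26 reads, a ratio of 1.75 (1.05 to 2.98). In the other direction, NONRATT028467.2 (707 bases, chr8:48622487-48623193) was listed with 12 reads with water and 0 with KXH, at least 3.69-fold lower on the same footing. No member with 100 reads or more was missing from a library.

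The libraries were then set against each other, to describe what differed in hypertensive hearts after the formula. Over the members as a whole they were alike. Their summed reads gave a ratio of 0.994 (0.991 to 0.998), which passed to the other side of 1 (1.01) when ratios were centred on the median of well-read lncRNA rows. Members below 500 bases alone gave 1.03. The median log2 ratio was -0.07 over the 6732 members with a mean of at least 0.5 RPKM, beside -0.04 over the 17071 lncRNA rows that passed. The other 442 members lay under this filter, and 456 of those that passed had 0 reads in 1 library. Across the 1471 members with at least 100 reads, Pearson's r between the log2 levels of the libraries was 0.979 and Spearman's rho 0.959. Members are not independent replicates, so these coefficients only describe the profiles.

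On the log2(RPKM + 0.1) scale, 632 of the 6732 members (9.39%) were at least 2-fold higher with KXH, against 8.18% of all lncRNA rows tested. At least 2-fold lower were 933 (13.9%), against 10.9% of all lncRNA rows. The background contains the members, and over the 10339 other rows the shares were 7.39% higher and 9.01% lower, both below those of the members. Nearly all of these 2-fold members had few reads. Fewer than 50 reads in sum lay behind 620 of the 632 higher and 903 of the 933 lower members. With 1 read worth 0.589 RPKM with KXH and 0.543 RPKM with water at the median length, a difference of a few reads is enough to pass 2-fold.

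Sorting members by reads showed how fast the spread closed. With 1 to 9 reads, 25.2% of the members tested were 2-fold higher and 32.3% 2-fold lower (28.0% and 30.7% among other lncRNA rows). With 10 to 49 reads these shares were 7.82% and 14.1% (8.94% and 12.8%). With 50 to 99 reads they were 0.925% and 2.36% (0.899% and 1.94%). From 100 to 499 reads they were 0.174% and 0.436% (0.173% and 0.242%). With 500 reads or more they were 0.310% and 0.619%, which are 1 and 2 members (0.0662% each among other rows, 1 row in either direction). The share of 2-fold lower members was above that of other rows in all 5 classes of reads. The share of 2-fold higher members was below that of other rows up to 49 reads and nearly equal to it from 50 to 499 reads. With 500 reads or more it was 1 member against 1 row. From 100 reads on both shares rest on few entries, and the higher share does so from 50 reads on (9 of 973 members). No test of these differences was made.

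With 1 to 9 reads few ratios are possible and members with 0 in a library have none, so that class was left aside. In each class from 10 reads on the log2 ratios spread more than counting error. With 100 to 499 reads their robust SD was 0.29, against 0.22 from counting error (the median of the SD that each member's reads imply). With 500 reads or more it was 0.19 against 0.09, and for other lncRNA rows 0.15 against 0.09. An interval of the ratio had an upper bound 6.68 times its lower bound, in the median, for members of 10 to 49 reads. That factor was 1.85 for 100 to 499 reads and 1.29 for 500 or more. Without replicates, variation between animals, tissue pieces and library preparations is contained in the first of these SDs and cannot be told apart from the treatment.

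**Figure D3:**
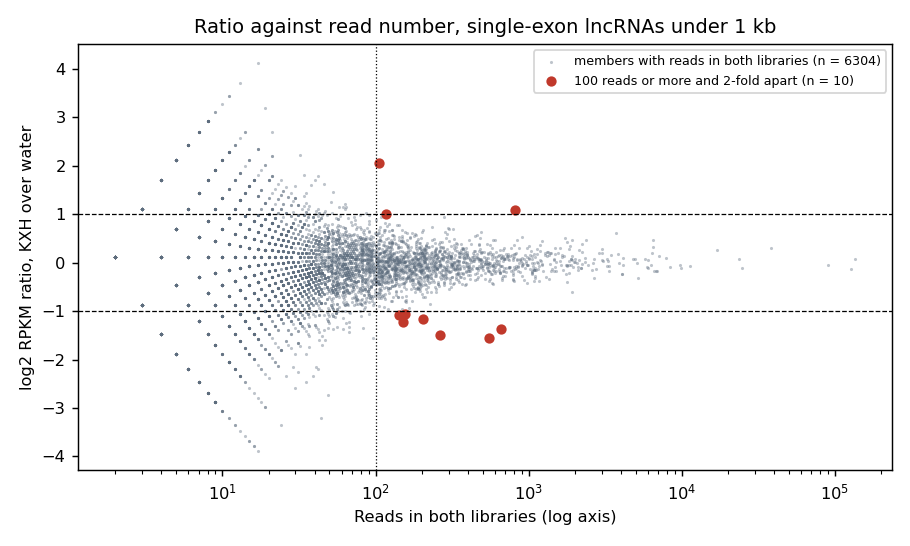
Log2 RPKM ratio of KXH over water against reads in both libraries (log axis), 1 point per member with reads in both (n = 6304), with dashed lines at 2-fold and a dotted line at 100 reads. The cloud narrows to the right, and 10 members with 100 reads or more (large points) lie at or past 2-fold, 3 higher and 7 lower.

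Over all 7174 members the counting interval lay above 1 in 266 (3.71%), where 4.63% of all lncRNA rows had such an interval. It lay below 1 in 407 (5.67%), against 6.45% of all rows. Among the 1471 members with at least 100 reads, 132 (8.97%) had an interval above 1, beside 8.59% of all lncRNA rows of that depth, and 159 (10.8%) one below 1, beside 11.5%. In ratio, 692 of the 1471 were above 1 and 779 below, beside 46% and 54% of all such rows. Within 1.5-fold lay 1387 (94.3%), beside 95.6% of all such rows. Of 323 members with 500 reads or more, 118 (36.5%) had an interval that left out 1, beside 29.9% of all lncRNA rows of that depth, and 5 (1.55%) lay beyond 1.5-fold, beside 1.2%.

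At least 2-fold higher among the 1471 were 3 members (0.204%), beside 0.153% of all lncRNA rows with at least 100 reads. At least 2-fold lower were 7 (0.476%), beside 0.256% of such rows. Both shares rest on a handful of entries.

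NONRATT028522.2 (659 bases, chr8:53026101-53026759) had the highest ratio of these members. It had 84 reads with KXH (43.5 RPKM) and 22 with water (10.5 RPKM), which is 4.14-fold higher (2.56 to 6.96). Reads covered 85.6% of it with KXH and 60.1% with water. The nearest other lncRNA row was 42044 bases away.

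NONRATT000090.2 (922 bases, chr1:21853694-21854615) rested on the most reads of the higher members. It was at 200.3 RPKM with KXH and 93.9 RPKM with water (541 and 275 reads), 2.13-fold higher (1.84 to 2.48), with 97.5% and 98.2% coverage. The member NONRATT002006.2, which ends 154 bases before it, was 1.67-fold higher (1.28 to 2.201) with 142 and 92 reads. The libraries thus differed in the same direction over both entries.

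NONRATT014868.2 (308 bases, chr2:2606026-2606333) was at 84.2 and 41.9 RPKM in the KXH and water libraries (76 and 41 reads), 2.01-fold higher (1.36 to 3.02). It fell short of 2-fold when reads were scaled by the lncRNA and protein-coding totals together. NONRATT006299.2 (929 bases, chr10:105747316-105748244) followed at 65.4 and 33.9 RPKM, for a ratio of 1.93 (1.503 to 2.49). NONRATT009428.2 (829 bases, chr14:72950956-72951784) had 69 and 39 reads and a ratio of 1.92 (1.28 to 2.92). The last 3 of the 8 highest, NONRATT001100.2, NONRATT020864.2 and NONRATT027772.2, had between 37 and 75 reads in a library and ratios of 1.85, 1.77 and 1.73, each with an interval above 1. NONRATT020865.2, a member 7757 bases from NONRATT020864.2, had the opposite direction, at 0.648 (0.426 to 0.972).

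The lowest ratio belonged to NONRATT022675.2 (796 bases, chr5:148532292-148533087). It had 131 reads with KXH (56.2 RPKM) and 417 with water (164.9 RPKM), 2.93-fold lower (2.41 to 3.60), over 97.1% and 99.5% of its length. It overlaps the much more abundant spliced row NONRATT022674.2, which had 12321 and 12969 reads and a ratio of 1.03 (1.005 to 1.06). Overlap was taken by span, so whether that row also counts the member's reads is not known.

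NONRATT020174.2 (565 bases, chr4:14112321-14112885) was at 105.1 RPKM with KXH and 273 RPKM with water (174 and 490 reads), 2.60-fold lower (2.18 to 3.10). Coverage was only 36.5% and 56.1%, so its reads came from a piece of the entry. NONRATT001184.2 (302 bases, chr1:193592677-193592978) was similar in this respect. It had 65 and 197 reads (73.5 and 205 RPKM), 2.79-fold lower (2.10 to 3.76), over 50.7% and 57.3% of its length. Their nearest lncRNA rows were 205390 and 107028 bases away.

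A pair of neighbours on chromosome 15 was lower together. NONRATT010687.2 (652 bases, chr15:105782769-105783420) had 43 reads with KXH and 109 with water, 2.34-fold lower (1.63 to 3.41). NONRATT010688.2 (960 bases, chr15:105784269-105785228) had 48 and 108 reads, 2.07-fold lower (1.46 to 2.98). Both lie within the span of the spliced row NONRATT010684.2, which had 321 and 344 reads and a ratio of 1.01 (0.867 to 1.18).

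The other lower members stood apart from each other. NONRATT019128.2 (517 bases, chr3:8741765-8742281) was at 39.0 RPKM with KXH and 87.7 RPKM with water, 2.25-fold lower (1.65 to 3.10). NONRATT013381.2 (400 bases, chr18:30869470-30869869) was at 36.7 and 77.9 RPKM, 2.12-fold lower (1.47 to 3.11). NONRATT027282.2 (758 bases, chr7:137806066-137806823) was at 21.6 and 41.9 RPKM, 1.94-fold lower (1.36 to 2.80). Each was covered to at least 96.3% in both libraries, and the nearest lncRNA row of each had an interval that included 1. In the plot of extreme ratios no interval of the 16 members reaches 1.

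**Figure D4:**
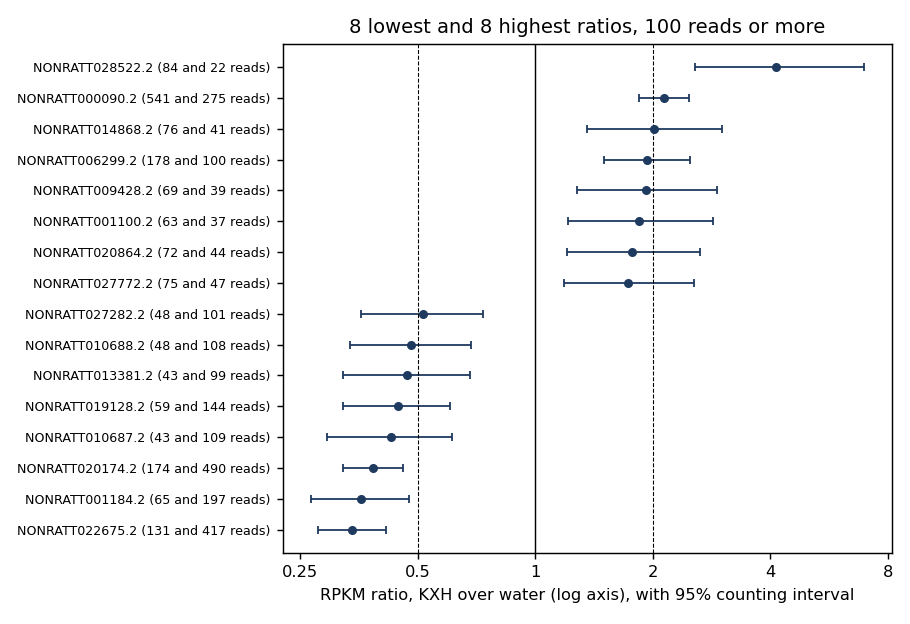
RPKM ratio of KXH over water (log axis) for the 8 lowest and 8 highest members with at least 100 reads, with 95% exact counting intervals and the reads in the KXH and water libraries beside each name. Dashed lines mark 2-fold, and the members run from 0.341 (NONRATT022675.2) to 4.14 (NONRATT028522.2).

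Most members had no other member close by. Within 10000 bases, 5224 (72.8%) were alone, 1412 formed 706 pairs, and 538 fell into 165 runs of at least 3. The largest runs had 6 members. In the run at chr1:72322203-72341511 the members summed to 220 reads with KXH and 248 with water, a ratio of 0.962 (0.799 to 1.16). The run at chr10:84123643-84154175 had only 8 and 37 reads, a ratio of 0.235 (0.0943 to 0.512). That difference rested on 1 member, NONRATT004801.2 (941 bases), with 5 and 30 reads and a ratio of 0.181 (0.055 to 0.471), and the other 5 members had at most 4 reads in a library. In a run of 5 at chr17:18671032-18679936, of 1795 and 1679 reads, NONRATT012842.2 (852 bases) had 1556 and 1472, a ratio of 1.15 (1.07 to 1.23). All 5 ratios lay between 1.02 and 1.99, but 3 of the intervals included 1, and NONRATT012843.2 and NONRATT012359.2 overlap each other. In the run at chr7:12426807-12443057, also among the 3 with most reads, 2368 of the 2394 reads of the KXH library fell on NONRATT026519.2, at a ratio of 1.05 (0.993 to 1.11).

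The ratios of neighbouring members were then compared by the gap between them. Over the 58 pairs of consecutive members that had at least 100 reads each and a gap of up to 1000 bases, Pearson's r of the log2 ratios was 0.47 and Spearman's rho 0.27. At gaps of 1001 to 10000 bases (83 pairs) r and rho were 0.13 and 0.15, and above 100000 bases (1130 pairs) 0.01 and 0.04. Leaving out the 2 pairs farthest from the median brought r to 0.25 in the closest class, to 0.23 at 1001 to 10000 bases and to 0.02 above 100000. The higher r of the closest pairs thus rested largely on 2 pairs, and with such pairs left out r was nearly alike in the closest classes. Spearman's rho over all pairs of these classes still differed, at 0.27 and 0.15. The median absolute difference of the log2 ratios within a pair was 0.17 up to 1000 bases. It was 0.25 at 1001 to 10000 bases, 0.30 at 10001 to 100000 and 0.26 above 100000. Pairs share both libraries and, when close, may share a transcript, so these coefficients are descriptions. NONRATT010687.2 with NONRATT010688.2, NONRATT002006.2 with NONRATT000090.2, and NONRATT015587.2 with NONRATT015588.2 (0.585 and 0.593) were the close pairs with the largest differences of 1 direction.

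**Figure D5:**
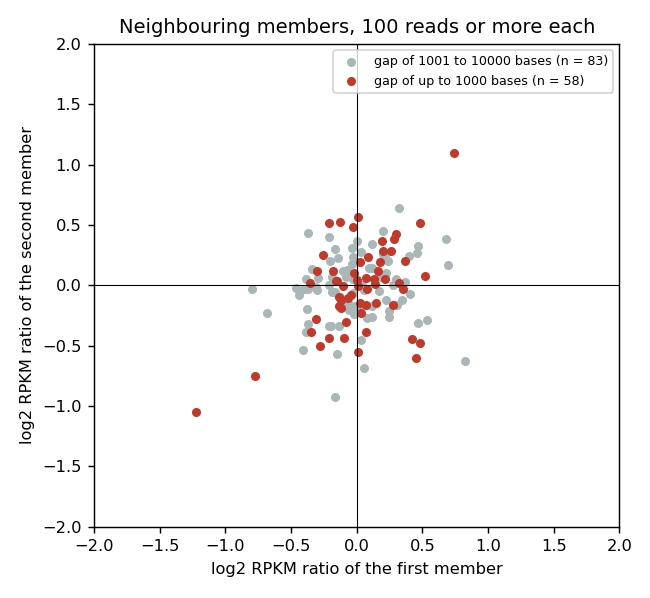
Log2 RPKM ratio of KXH over water of a member against that of the next member along the chromosome, both with at least 100 reads, for gaps of up to 1000 bases (58 pairs) and 1001 to 10000 bases (83 pairs). Most points lie near 0 on both axes, and 3 pairs of the closer kind lie out along the diagonal.

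Overlap with another lncRNA row was found for 1016 members (14.2%), for 899 of them with the span of a spliced row. Overlapping members had a median level of 6.90 RPKM and the other 6158 members one of 7.54 RPKM. Their shares of 2-fold higher and lower members were 8.73% and 13.5%, and 9.50% and 13.9% without overlap. Strand is not given, so reads of a member and of a transcript on the opposite strand cannot be told apart. Of the 7 well-read members at least 2-fold lower, 3 (NONRATT022675.2, NONRATT010687.2 and NONRATT010688.2) overlap another row, and of the 3 higher ones none does.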

How the data were processed

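Myocardium of 2 libraries, 1 per group, was compared, and groups were taken from the agent in the labels. The submitters' processing notes list Bowtie 0.12.2 and rn6 without saying for which step. Counting program, annotation, filters and strand use: not given in the sources used here. Each deposited table lists whole counts of reads described as unique per the file headers, for rows with at least 1 read. The deposited RPKM values equalled the count divided by length in kilobases and by the table's total in units of 1000000 reads, to a relative difference under 1e-09. The deposited coverage is a percentage by its sign, was treated as a score because some values pass 100, and its definition is not given. Apart from description, it gave the bases covered by single reads and so the start positions. Among the alternatives it also set a cut at 50%.

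The lncRNA tables were joined on identifier, with an absent row at 0 reads. Log2 ratios used a pseudocount of 0.1 RPKM and rows with a mean of at least 0.5 RPKM, which shrinks low ratios. Ratios printed as fold had nothing added. Their 95% Clopper-Pearson intervals on the KXH share of reads cover counting error only, since reads carry no molecular identifiers. With 1 library per group no test was possible. Steps were tested on simulated data. The members, lists and rules were chosen with earlier results of these data known. Named members are the 8 highest levels, the 8 highest and 8 lowest ratios and the 3 shortest among those with at least 100 reads, the 4 with most reads, those beside the length limit, and the 3 runs of neighbours with most members or most reads. Any with at least 100 reads in 1 library and 0 in the other would have been named, and there were none. Members named for coverage, absence from a library or paired ratios were chosen after their values were seen. Computation used scipy 1.17.1, pandas 2.3.3 and numpy 2.4.6 under Python 3.11.15, and plots matplotlib 3.10.9.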

Additional observations from a re-analysis of the deposited data

How the results depend on the processing

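With 1 library per group and a median of 26 reads per member, counts of 2-fold members moved with the reads required. Of 61 recomputed values for counts, median and pooled ratio, 40 stayed within their bounds (1.5-fold for a count, the counting interval for the pooled ratio). A filter at a mean of 2 RPKM left 327 members 2-fold higher and 531 lower, of 5591 tested. With length below 500 bases these were 324 and 426 of 2385, and the well-read ones 1 and 2 of 373. Of the 2543 members below 500 bases, 79 had an interval above 1 and 119 one below 1. Their median log2 ratio was -0.048 and their pooled ratio 1.03. Both alternatives test fewer members by construction. Requiring 50 reads gave 12 well-read members higher and 30 lower of 2444, and 200 reads gave 1 and 4 of 789. Intervals at 99% left 119 above and 163 below 1, of 7174. Shares over all lncRNA rows were not recomputed under the alternatives. Centring on the lncRNA median gave a median log2 ratio of -0.054 and a pooled ratio of 1.01, scaling by both table totals a pooled ratio of 0.986, and leaving out the member with the most reads 0.988. Without members that overlap another lncRNA row, an alternative chosen after seeing the data, 4 of 1287 well-read members were 2-fold lower. Of 78 recomputed ratios of single members, 75 stayed within their counting interval and no ratio whose interval left out 1 changed side. These used only scaling by both totals and centring, each of which multiplies all ratios by a common factor. Staying within the interval thus turned on its width, and is no check of single ratios. No paired analysis was possible because there is 1 library per group.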
